A study of Mus with 6 samples.

Results

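The miR-155 hairpin gives rise to 2 mature miRNAs, miR-155-5p from its 5′ arm and miR-155-3p from its 3′ arm, and both were read by name (mmu-miR-155-5p and mmu-miR-155-3p) from the count table of each library. They are 2 of the 929 known mature miRNA names that all 6 tables list. The study sequenced small RNA from mouse adipocytes, with 3 libraries of a model group under chronic intermittent hypoxia (CIH, repeated falls in oxygen as in sleep apnoea) and 3 control libraries. All 6 were labelled as wild-type adipocytes of the C57BL/6 strain. The labels give neither the oxygen regime, nor the age or sex of the animals, nor whether each library is a separate animal or culture. The p-values below therefore rest on the spread between libraries, and that spread may be technical only.

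miR-155 is made from a spliced noncoding transcript, the B-cell integration cluster RNA, which Drosha and Dicer cut into a short duplex. The 5p strand is the one usually loaded into Argonaute, and the 3p strand is usually lost. Transcription of the host gene rises with NF-kB and AP-1 signalling in activated macrophages and lymphocytes, where miR-155-5p represses brakes on inflammation such as SOCS1. In fat cells the same strand is known to be induced by TNF and to restrain adipogenesis and the brown fat programme by repressing C/EBPβ. On GRCm38, Mir155 lies on chromosome 16 from 84714140 to 84714204, inside the span of its noncoding host gene Mir155hg (84713023 to 84715245), the 1 other gene that overlaps it in the RefSeq table. The nearest other miRNA gene, Mir6367, starts 6813 kb away, so the hairpin has no clustered neighbour.

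Total counts ran from 6291101 to 11264151 per library. Levels are given as CPM, the count divided by the library total on a common scale, and the floor of 3 counts lay between 0.266 and 0.477 CPM. In both groups the library numbered 3 was unlike the other libraries: log CPM over miRNAs correlated at 0.972 to 0.994 among the 4 libraries numbered 1 and 2 and at 0.889 to 0.905 between these and the libraries numbered 3, with 0.899 inside the pair numbered 3. Results are therefore given for the libraries numbered 1 and 2 apart from the pair numbered 3, where 1 library stands for each group and there is no spread to test against.

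miR-155-5p, the guide strand, had the higher level in every CIH library. It stood at 308, 207 and 525 CPM in CIH libraries 1, 2 and 3, against 155, 176 and 90.7 CPM in control libraries 1, 2 and 3. The 2 groups did not overlap, with the highest value in CIH library 3 and the lowest in control library 3, so the pair numbered 3 held both ends of the range. It averaged 347 ± 162 CPM under CIH and 141 ± 44.5 CPM in the controls (n = 3 each, SD). These levels come from 2263, 2078 and 5909 reads in CIH and 972, 1714 and 749 reads in control, so counting error was small beside the spread between libraries.

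miR-155-3p, the passenger strand, was far less abundant and also higher in every CIH library. It stood at 17.7, 6.67 and 4.53 CPM in CIH libraries 1, 2 and 3, against 4.29, 3.7 and 0.847 CPM in control libraries 1, 2 and 3. Here CIH library 1 was far above the rest and the lower end of CIH came close to the upper end of control. The exact Poisson 95% intervals of CIH library 3 (3.37 to 5.95 CPM) and control library 1 (2.83 to 6.24 CPM) overlapped. Its mean was 9.64 ± 7.08 CPM under CIH and 2.95 ± 1.84 CPM in the controls (n = 3 each, SD), and the counts behind it were 130, 67 and 51 reads in CIH, against 27, 36 and 7 reads in control. Intervals of this kind cover counting error only.

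**Figure D1:**
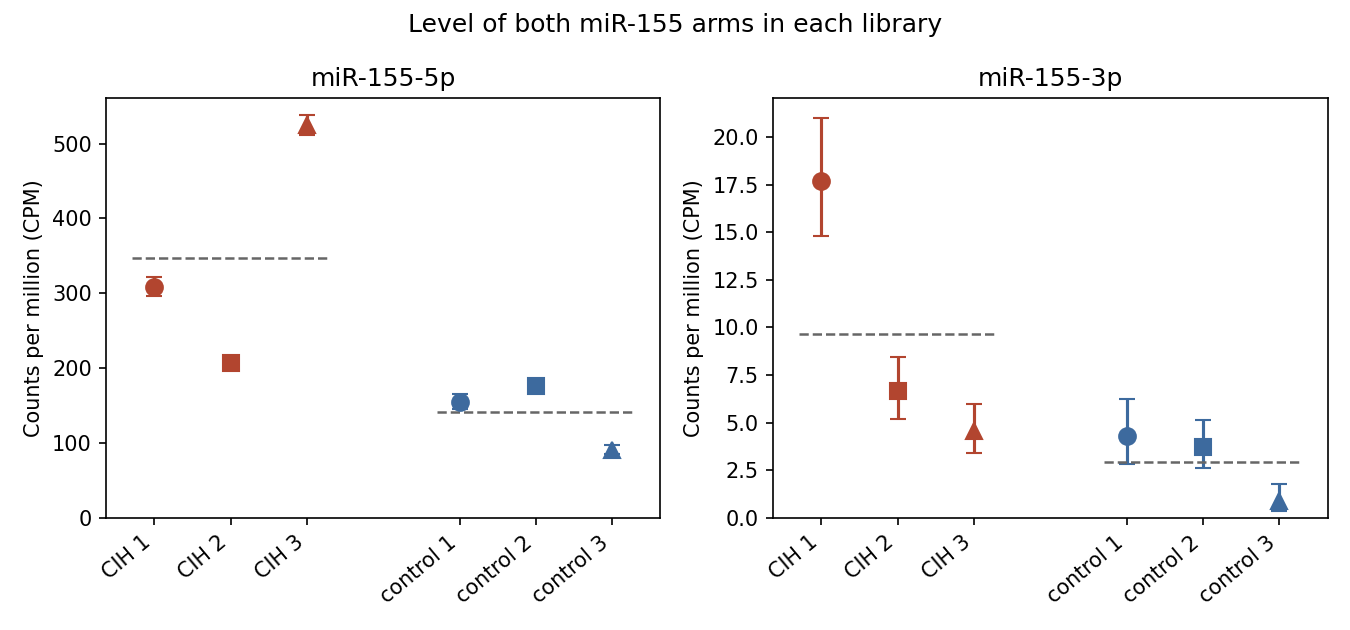
Level of miR-155-5p (left) and miR-155-3p (right) in CPM in each CIH and control library, with exact Poisson 95% intervals as bars and the group mean as a dashed line; marker shapes stand for the library number. The 5p strand was highest in CIH library 3 (525 CPM) and the 3p strand in CIH library 1 (17.7 CPM), so different libraries led for the 2 strands.

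CIH ranges lay wholly above control ranges for 34 of the 456 miRNAs tested in the 6 libraries (7.46%), and both strands were among these. A lower CIH range was found for 3.73%. A two-sided exact permutation test on log2(CPM + 0.5) gave p = 0.1 for each strand, the smallest value that 3 libraries against 3 allow. With TMM scaling, which corrects for library composition, the order within control changed. miR-155-5p then stood at 269, 221 and 473 CPM in CIH libraries 1, 2 and 3, against 129, 160 and 143 CPM in control libraries 1, 2 and 3. Control library 3 was no longer the lowest, and the groups still did not overlap. For miR-155-3p the scaled values were 15.4, 7.12 and 4.08 CPM in CIH, against 3.58, 3.36 and 1.33 CPM in control.

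Over all 6 libraries neither strand passed the test. edgeR's quasi-likelihood test gave miR-155-5p a log2 difference of 1.16 (SE 0.45) and miR-155-3p one of 1.67 (SE 0.69), both with an adjusted p of 0.833. By unadjusted p (0.0349 and 0.0438) they ranked 14th and 20th among the 456 miRNAs. This test called 0 miRNAs (0%), and 23 (5.04%) had an unadjusted p under 0.05. The other tools run, DESeq2 and limma-voom, called 0 as well.

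Within the libraries numbered 1 and 2 both strands rose under CIH. miR-155-5p stood at 308 and 207 CPM in CIH, against 155 and 176 CPM in the controls, and its log2 difference was 0.76 (SE 0.23; edgeR adjusted p = 0.0340). miR-155-3p stood at 17.7 and 6.67 CPM in CIH, against 4.29 and 3.7 CPM in the controls. Its log2 difference was 1.69 (SE 0.41; edgeR adjusted p = 0.00685). In this set 19 of 459 miRNAs (4.14%) rose and 24 (5.23%) fell, with 2 libraries per group. miR-155-3p ranked 20th and miR-155-5p 38th by p among the 43 called (9.37%).

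The calls depended on the setting. The call of miR-155-5p was lost under 8 of 13 other settings, among them scaling by total counts alone (log2 difference 0.64, adjusted p = 0.190), DESeq2 (0.73, adjusted p = 0.0617) and limma-voom (0.75, adjusted p = 0.0527). That of miR-155-3p was lost under 4 of 12, namely total counts alone (1.60, adjusted p = 0.0574) and the fits without control library 1 (1.72), control library 2 (1.71) or CIH library 1. Fits without 1 library leave a single library in a group, so their spread comes from the other group alone. Without CIH library 1, the library where it was highest, the log2 difference of miR-155-3p was 1.03 (adjusted p = 0.165), and that of miR-155-5p was 0.60 (adjusted p = 0.114). The log2 differences of both strands in this set stayed above 0 under each setting run. Both CIH libraries lay above both control libraries for each strand, and the settings refit the same libraries. The unchanged sign is therefore no further evidence. Scaling by total counts moved the median of all miRNAs to -0.17, against -0.03 with TMM, and then 7 miRNAs rose and 27 fell.

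**Figure D2:**
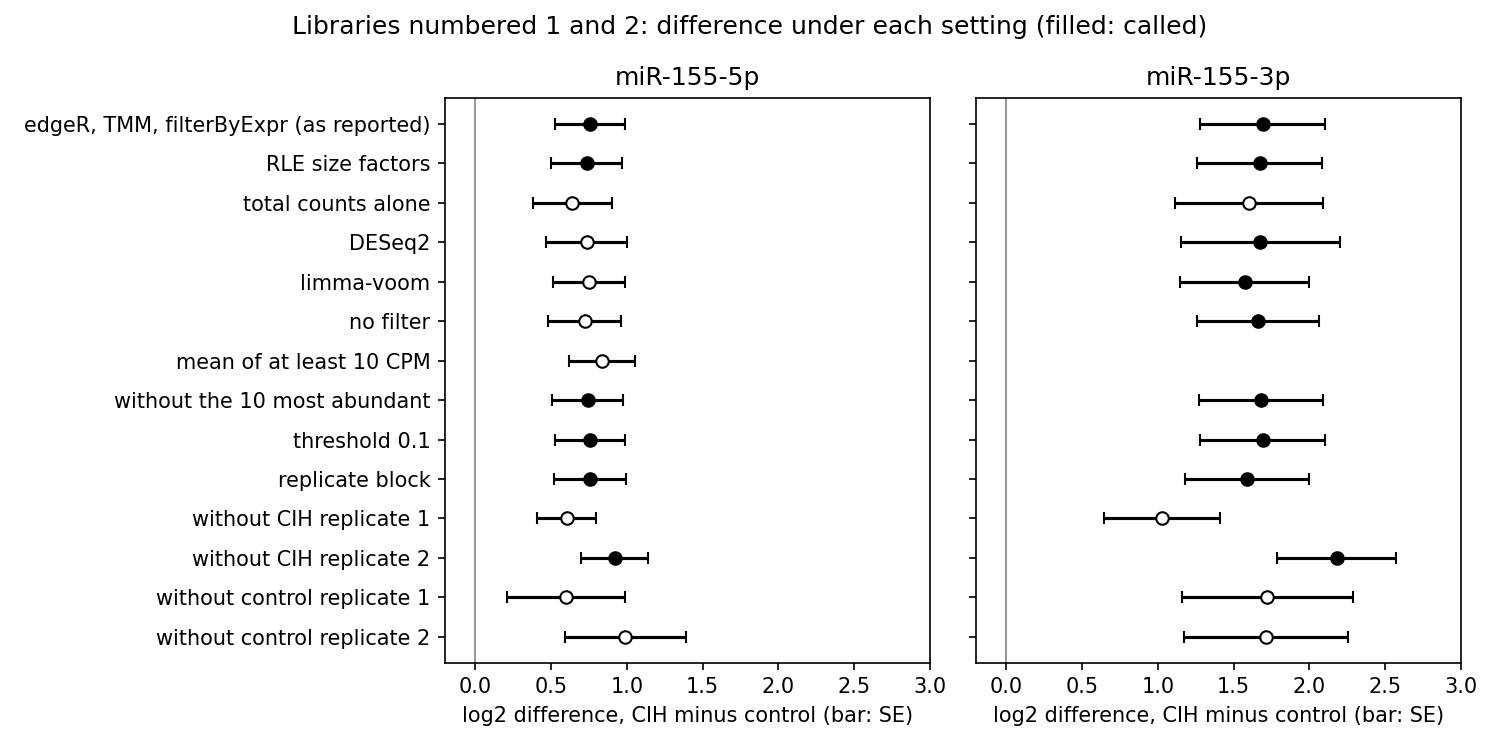
Log2 difference (CIH minus control) of both strands within the libraries numbered 1 and 2 under each setting, with its SE as the bar; filled points were called at an adjusted p under 0.05 (under 0.1 in the row so named), open points were not. All points lie right of 0, from 0.60 to 0.99 for miR-155-5p and from 1.03 to 2.18 for miR-155-3p; miR-155-3p has no point at a mean of at least 10 CPM, because its own mean is lower.

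The differences inside each numbered pair varied in size. miR-155-5p in CIH library 1 was 2.0-fold its level in control library 1 (95% counting interval 1.85 to 2.15), and in CIH library 2 it was 1.17-fold its level in control library 2 (1.10 to 1.25). The lower bound of the second pair thus came close to equal levels. In the pair numbered 3 the ratio was 5.79 (5.36 to 6.25). For miR-155-3p the ratios were 4.13 (2.71 to 6.50), 1.8 (1.18 to 2.78) and 5.34 (2.41 to 14.0) in the pairs numbered 1, 2 and 3. The interval of the last is wide because control library 3 held 7 reads of this strand. CIH was above control in all 3 pairs for 95 of 456 miRNAs (20.8%), both strands included.

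In the pair numbered 3 large differences were common. CIH was over 2-fold higher (on CPM + 0.5) for 41.7% of the 456 miRNAs by file total and for 23.7% after TMM. The log2 difference of miR-155-5p there was 2.53 by file total and 1.72 after TMM, with 42 and 46 miRNAs above it. That of miR-155-3p was 1.90 and 1.32, with 85 and 70 miRNAs above it. A fit with an interaction of group and library set asked whether the CIH difference in the pair numbered 3 departed from that in the libraries numbered 1 and 2. For miR-155-5p this departure was 0.97 on the log2 scale (SE 0.39, edgeR adjusted p = 0.0607). It depended on the setting, at 1.89 with total counts alone (SE 0.45, edgeR adjusted p = 0.00492). At a minimum mean of 10 CPM it was 0.53 (SE 0.37, edgeR adjusted p = 0.290). For miR-155-3p the departure in the first of these fits was -0.09 (SE 0.93, edgeR adjusted p = 0.955), an SE too large to tell equal from 2-fold different effects. The interaction called 138 of 456 miRNAs (30.3%), and it assumes that the single libraries numbered 3 vary like the others.

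The balance of the arms differed more by library set than by treatment. In CIH libraries 1, 2 and 3 there were 17.4, 31.0 and 116 reads of miR-155-5p per read of miR-155-3p, against 36.0, 47.6 and 107 in control libraries 1, 2 and 3. Both libraries numbered 3 lay above the other 4, whatever their group. As a share of both strands, miR-155-3p made up 5.43% (exact 95% interval 4.56% to 6.42%), 3.12% (2.43% to 3.95%) and 0.856% (0.638% to 1.12%) in CIH libraries 1, 2 and 3. It made up 2.70% (1.79% to 3.91%), 2.06% (1.44% to 2.84%) and 0.926% (0.373% to 1.90%) in control libraries 1, 2 and 3. The pair numbered 3 differed by less than counting error, and the interval of CIH library 1 lay above all others.

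**Figure D3:**
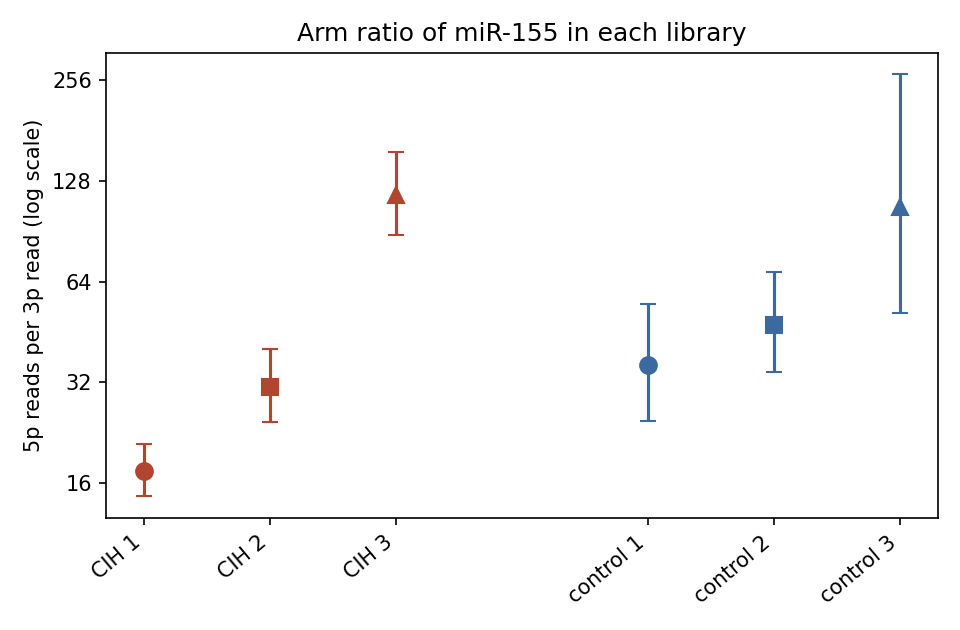
Reads of miR-155-5p per read of miR-155-3p (log scale) in each CIH and control library, with bars from the exact binomial 95% interval of the share of the 3p strand. The libraries numbered 3 (triangles) sit at 116 in CIH and 107 in control, above the 17.4 to 47.6 of the libraries numbered 1 and 2.

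Between CIH and control the arm ratio did not pass the test. Over 6 libraries the log2 ratio differed by -0.48 (SE 0.80; limma adjusted p = 0.953 over 118 hairpins with a mean count of at least 10 in each arm), and the two-sided exact permutation p was 0.6. This difference changed sign without CIH library 1, at 0.11. In the libraries numbered 1 and 2 alone the difference was -0.82 (SE 0.40; limma unadjusted p = 0.0719, adjusted p = 0.434), so the larger log2 difference of the 3p strand than of the 5p strand there was not called. limma called 0 of 118 hairpins (0%) in both comparisons, with 4 (3.39%) and 13 (11.0%) at an unadjusted p under 0.05. edgeR on the arm counts also called 0 in both, and with the library number as a block limma called 5 in the second, miR-155 not among them (adjusted p = 0.260). In the pair numbered 3 the difference was 0.20, with a counting interval from -1.28 to 1.27.

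Between the sets, a comparison added after these ratios were seen, the log2 ratio was 1.8 higher in the libraries numbered 3 than in those numbered 1 and 2 with group in the model (SE 0.44; limma adjusted p = 0.0118). It was higher in 2 of 2 libraries. Such set differences were frequent, with 39 of 118 hairpins (33.1%) called, 22 of them higher (18.6%). For 27.1% of hairpins both libraries numbered 3 lay above the other 4. Without CIH library 3 the call of miR-155 was lost (1.29, limma adjusted p = 0.0517), where control library 3, with its 7 reads of the 3p strand, stood alone for its set. Without control library 3 it was 2.31 (limma adjusted p = 0.00752). On levels alone, with group in the model, miR-155-3p was lower in the libraries numbered 3 (-1.42, SE 0.48, edgeR adjusted p = 0.0694) and miR-155-5p higher (0.49, SE 0.34, edgeR adjusted p = 0.318), and neither passed, while 25.0% of miRNAs did.

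Among all hairpins, miR-155 leaned strongly to its 5p arm. Its mean log2 ratio over the 6 libraries was 5.54, and 24 of the 118 hairpins had a higher one. The 5p arm was the higher in 73 hairpins and the 3p arm in 45, and the median size of the log2 ratio was 3.33. Across libraries the ratio of miR-155 spanned 2.73 log2 units, where the median hairpin spanned 2.07 and 42 spanned more.

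By mean CPM of the 6 libraries miR-155-5p ranked 99th of 929 names (244 ± 155 CPM, SD, n = 6). Its neighbours, the names just above and below it by mean, were miR-210-3p (252 ± 241 CPM), the usual miRNA target of HIF-1, and miR-99b-3p (243 ± 73.3 CPM). Their means lie close to its own by this choice, and no test was run between them. In single libraries it ranked 87th, 95th and 73rd in CIH and 118th, 105th and 112th in control. miR-155-3p ranked 291st by mean (6.29 ± 5.90 CPM), between miR-467a-3p (6.38 ± 4.0 CPM) and miR-195a-3p (6.11 ± 4.47 CPM), chosen in the same way. In CIH it was 222nd, 277th and 309th, and in control 335th, 331st and 406th. Mature miRNAs are of nearly equal length, so these CPM levels can be set side by side, apart from differences in how well each is ligated and amplified.

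Outside the hairpin, the levels most like those of miR-155-5p over the 6 libraries were those of miR-125a-3p (Pearson r = 0.98 of log2 CPM), miR-29c-5p (0.98), miR-34c-3p (0.97), miR-344d-3p (0.97) and miR-34b-3p (0.96), out of 256 miRNAs with a mean of at least 10 CPM. All 5 were highest in CIH library 3 and lowest in control library 3, as miR-155-5p was, so these values describe 1 pair as much as the groups. miR-344d-3p was the member of this group called within the libraries numbered 1 and 2 (log2 difference 1.33, SE 0.30, edgeR adjusted p = 0.00312). Its level was 135, 64.3 and 170 CPM in CIH, against 43.2, 41.9 and 12.5 CPM in control. For miR-155-3p the closest were miR-674-3p (r = 0.98), miR-423-3p (0.95), miR-467e-5p (0.94), miR-146b-3p (0.94) and let-7d-3p (0.93), all highest in CIH library 1 and lowest in control library 3. The 2 strands of miR-155 had r = 0.65 with each other. The strands were not among the 256 candidates and the values above are the largest of these, so 0.65 cannot be ranked beside them. The 6 libraries share the library sets described above, and these r values carry no test.

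Of 24 other inflammation-linked miRNAs, 22 were tested within the libraries numbered 1 and 2, where 3 rose and 1 fell, beside 4.14% that rose and 5.23% that fell over all tested miRNAs. Their median log2 difference was 0.24, against -0.03 for all tested miRNAs. The list was chosen with earlier results of these data known, so these values do not test it. Those that rose were miR-221-3p (1.18, SE 0.21), miR-222-3p (1.14, SE 0.22) and miR-187-3p (1.60, SE 0.48), the last of which lowers cytokine output downstream of IL-10 in human monocytes. With total counts alone miR-187-3p was not called (edgeR adjusted p = 0.143) and 2 of the list rose. miR-187-3p stood at 7.22, 3.09 and 5.59 CPM in CIH, against 2.23, 1.44 and 1.33 CPM in control, so it was scarcer than miR-155-3p in the 4 libraries numbered 1 and 2. The member that fell was miR-210-3p (-1.75, SE 0.24). miR-146a-5p, the NF-kB-driven repressor of IRAK1 and TRAF6 that often accompanies miR-155, stood at 45.5, 37.2 and 1964 CPM in CIH, against 24.3, 24.9 and 38.7 CPM in control. Its log2 difference within the libraries numbered 1 and 2 was 0.88 (SE 0.31; edgeR adjusted p = 0.0705), and CIH library 3 was the highest library for both miR-146a-5p and miR-155-5p. Over all 6 libraries 17 of the 22 were higher in CIH, beside 244 of all 456, with a median of 0.38 against 0.04 for all miRNAs, and 0 were called.

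Of 22 other miRNAs known to restrain adipogenesis, 17 were tested within the libraries numbered 1 and 2, where 2 rose and 0 fell, again beside 4.14% and 5.23% over all tested miRNAs. The 2 were miR-221-3p and miR-222-3p, which are in the inflammation-linked list as well. The list of adipogenesis miRNAs had a median of -0.15 against -0.03 for all miRNAs, and 12 of the 17 were lower in CIH, as were 240 of all 459. It too was chosen with earlier results of these data known, so these values do not test it. By smallest p the next were miR-31-5p (-0.70, SE 0.27; edgeR adjusted p = 0.0979) and miR-33-5p (-0.90, SE 0.37; edgeR adjusted p = 0.134). In these libraries both had log2 differences of the opposite sign to that of miR-155-5p. In the pair numbered 3 both were higher in CIH by file total, miR-31-5p at 289 against 100 CPM and miR-33-5p at 2.04 against 1.57 CPM. The median log2 difference of all miRNAs in that pair was 0.74 by file total and 0.05 after TMM. The difference of miR-33-5p was smaller than this median by file total, so its direction in that pair depends on the scaling. Over all 6 libraries the log2 differences of miR-31-5p and miR-33-5p were 0.02 and -0.87. In all 6 libraries 10 of 16 members of the list were higher, beside 244 of all 456, with a median of 0.08 and 0 called.

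Because miR-155 is abundant in activated leukocytes, its level was set beside leukocyte markers. miR-142a-3p, a miRNA of nearly all blood cell lineages, had 1, 0 and 0 reads in CIH and 3, 0 and 0 reads in control. miR-223-3p of neutrophils and macrophages had 3, 3 and 0 reads in CIH and 1, 4 and 0 in control. The macrophage miRNA miR-511-3p had 1 read in CIH library 2 and 0 in the other libraries, and miR-511-5p was not among the names listed for any of the 6 libraries. miR-142a-5p, miR-223-5p and the lymphocyte miRNA miR-150-5p stood at 2.54 CPM or less in every library.

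The 6 leukocyte markers together summed to 13.9, 8.56 and 22.9 CPM in CIH, against 12.6, 11.3 and 12.2 CPM in control. Most of this was miR-342-3p, which is made outside leukocytes as well, at 10.4, 6.37 and 22.6 CPM in CIH, against 8.11, 9.16 and 11.9 CPM in control. miR-155-5p stood at 22.2, 24.2 and 22.9 times the summed leukocyte level in CIH libraries 1, 2 and 3, and at 12.3, 15.6 and 7.42 times it in control libraries 1, 2 and 3. Within the libraries numbered 1 and 2 the 2 leukocyte markers that could be tested, miR-142a-5p (-0.52) and miR-342-3p (0.06), were not called. In the pair numbered 3 miR-342-3p was the higher in CIH by file total, as miR-155-5p was. The median log2 difference of all miRNAs in that pair was 0.74 by file total and 0.05 after TMM. For miR-155-5p it was 2.53 and 1.72. By file total the difference of miR-342-3p was nearer to that median than to that of miR-155-5p. Each library was a bulk sample, so a change in the number of cells of a type and a change in RNA per cell cannot be told apart.

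**Figure D4:**
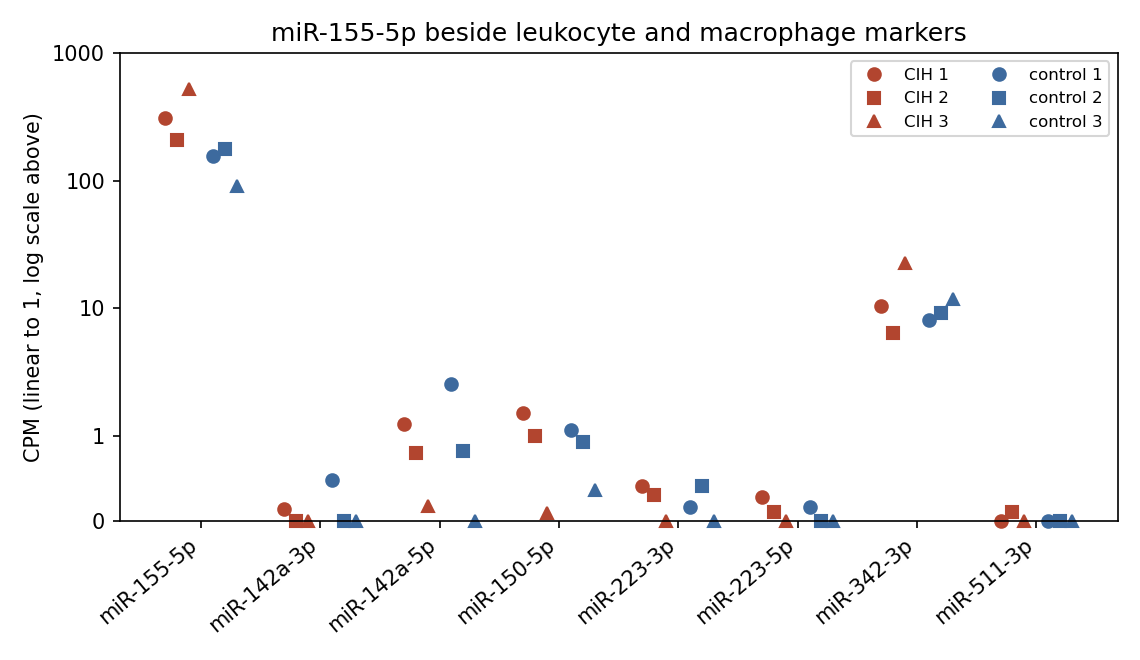
CPM of miR-155-5p and of 6 leukocyte markers and 1 macrophage marker in each CIH (red) and control (blue) library, on an axis that is linear up to 1 CPM and logarithmic above. miR-155-5p lies between 90.7 and 525 CPM, miR-342-3p between 6.37 and 22.6 CPM, and the other markers at 2.54 CPM or below.

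Other marker groups moved between libraries too. The 3 stromal markers miR-199a-3p, miR-199a-5p and miR-214-3p summed to 10752, 10647 and 65453 CPM in CIH, against 15709, 12890 and 6077 CPM in control. In the pair numbered 3 they were thus higher in CIH together with miR-155-5p. In the libraries numbered 1 and 2, where miR-155-5p rose, their log2 differences were -0.13, -0.59 and -0.23 in the order named. None of the 3 was called, and 240 of all 459 miRNAs were lower there. The 2 endothelial markers, the arms of miR-126a, summed to 104, 73.1 and 100.1 CPM in CIH, against 137, 92.9 and 33.8 CPM in control, so in the pair numbered 3 they too were higher in CIH. Of miRNAs enriched in but not exclusive to adipocytes, all 5 were detected in every library and summed to 146108, 125640 and 67442 CPM in CIH, against 169622, 186395 and 103592 CPM in control. Their log2 differences were below 0 for 5 of 5 both within the libraries numbered 1 and 2 (240 of all 459 were lower there) and over all 6 (212 of all 456). Within the libraries numbered 1 and 2 miR-193b-3p fell (-1.32, SE 0.33; edgeR adjusted p = 0.00714). The part of these shifts in the difference of miR-155 was not tested.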

How the data were processed

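The deposited tables, 1 per library, give raw read counts for each mature miRNA, with no scaling. The header of 3 tables says FPKM, yet each value is a whole number and the sums differ between libraries, so these too were read as counts. GRCm38, featureCounts 1.5.0-p3 and DESeq 1.8.3 are listed, with no role or order, per the submitters' processing notes. How adapters were trimmed, reads aligned and multiply matching reads counted, and by which miRBase release, is not given in the sources used here. Small RNA was isolated with a miRNA kit, column-purified and sequenced on an Illumina HiSeq instrument, per the labels' protocols.

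The libraries numbered 1 and 2 list 1053 names (1024 known, 29 predicted) and those numbered 3 list 1186 (1116 known, 70 predicted). The 929 known names in all tables entered the tests. CPM was computed on the file total. Counts were tested with edgeR 4.0.16 (robust quasi-likelihood F test, TMM, filterByExpr, group as the only term, Benjamini-Hochberg at 0.05), and arm ratios with limma 3.58.1 on log2((5p + 0.5)/(3p + 0.5)), with a robust spread trended on the mean count of the lower arm. DESeq2 1.42.0 and limma-voom were alternatives, as were other scalings, filters, pseudocounts, the replicate block and leaving out each library. R 4.3.3, Python 3.11.15, pandas 2.3.3, numpy 2.4.6, scipy 1.17.1 and matplotlib 3.10.9 were used, and the fits were tested on simulated counts. RefSeq's gene table of GRCm38.p6 gave the positions.

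The members and lists were chosen with earlier results of these data known. The text names both strands, up to 4 members of each list by smallest p in the libraries numbered 1 and 2 and any called, all cell type markers, the 5 miRNAs most like each strand and its neighbours in level. miR-146a-5p and miR-187-3p levels are given in addition, chosen after their values were seen. Deviations from group means correlated at 0.35, 0.39 and 0.40 in libraries of the same number. As all 3 exceed 0.1, the blocked fits take the numbers as pairs. These values cannot show a pairing, because the libraries numbered 3 stood apart in both groups. CIH library 2 correlated as closely with control library 1 (0.43), and CIH library 1 with control library 2 at 0.20. Within the libraries numbered 1 and 2 alone, libraries of the same number correlated at 0.18. Libraries of 1 group differed by more than counting noise (at least 135 in chi-square per degree of freedom), so each was counted as 1 replicate. Such a spread can also be technical, so it does not show that the libraries are separate animals or cultures. No molecular identifiers are described, so reads are not independent molecules.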

Additional observations from a re-analysis of the deposited data

How the results depend on the processing

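Within the libraries numbered 1 and 2, the log2 difference of miR-155-5p kept its sign but missed the threshold with total counts alone (0.64), DESeq2 (0.73), limma-voom (0.75), no filter on low counts (0.72) and a minimum mean of 10 CPM (0.84), that of miR-155-3p with total counts alone (1.60); fewer miRNAs were tested at 10 CPM, where miR-155-3p gave no value, and the cause was otherwise not tested. Leaving out 1 library gave 0.60 to 0.99 for miR-155-5p and 1.03 to 2.18 for miR-155-3p, and 9 to 97 miRNAs called. The count of 43 was 16 at a mean of 10 CPM and 65 at a threshold of 0.1. For the difference between sets, total counts alone gave 1.89 for miR-155-5p (now called) and 0.80 for miR-155-3p (other sign). A minimum mean of 10 CPM gave 0.53 for miR-155-5p there (not called). The arm ratio over 6 libraries ranged from -1.25 to 0.11 with 1 library left out. Hairpins called within the libraries numbered 1 and 2 were 4 at a mean count of 50 per arm, 5 with the replicate block and 0 to 2 with 1 library left out. In the pair numbered 3, TMM gave 1.72 for miR-155-5p. Over 6 libraries 0 miRNAs were called under all 16 settings. With the replicate block the log2 differences were 1.08 and 1.59 over 6 libraries and 0.76 and 1.59 in the libraries numbered 1 and 2 (miR-155-5p, then miR-155-3p), where it called 48 miRNAs; both strands stayed on their side of the threshold. Depth limits miR-155-3p most, at 7 reads in control library 3.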
